A study of Mus musculus with 6 samples.

Results

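Apoe and 9 genes that lie close to it on mouse chromosome 7 were followed, probe set by probe set, in aortas of mice with and without a working Apoe gene. The genes were Relb, Clptm1, Apoc2, Apoc4, Apoc1, Apoe, Tomm40, Nectin2, Bcam and Bcl3, in chromosome order, and their probe sets were found by gene symbol or older alias (Pvrl2 for Nectin2) in the platform annotation. All 10 genes were represented, among 18194 gene symbols on the array, by 12 of the 45037 probe sets that are not controls, with 2 probe sets each for Clptm1 and Nectin2 and 1 for every other gene. The samples were total RNA from the whole aorta of 32 week old mice, 3 from wild-type C57BL/6J animals and 3 from apoE-/- animals on C57BL/6J, each read on 1 single-colour oligonucleotide array. The labels give no sex, diet, treatment or number of animals behind a sample, and neither the construct of the apoE-/- allele nor the number of backcrosses is given in the sources used here. They do not say whether replicates were separate animals, so the p-values cover only how these 6 samples vary, and that variation may be technical.

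Apolipoprotein E is a protein of plasma lipoproteins that receptors of the LDL receptor family recognise, and mice without it accumulate cholesterol-rich remnants and form arterial plaques. Liver cells make most of it, and macrophages, including those in plaques, make it too. The genes Apoc1, Apoc2 and Apoc4 beside it encode small apolipoproteins that move between lipoprotein particles, are strongly expressed in liver, and can be induced together with Apoe in macrophages by the liver X receptors (LXR), sensors of oxidised cholesterol. The other genes of this stretch have unrelated products: the pore of the mitochondrial protein import machinery (Tomm40), a multipass membrane protein (Clptm1), adhesion molecules (Nectin2 and Bcam) and proteins of the NF-kappaB pathway (Relb and Bcl3).

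Every gene of this stretch with a promoter window in the RefSeq table (GRCm38.p6, 250 bases before to 50 bases after the annotated start) lies on the minus strand, and 8 of the 10 genes had one. The windows of 5 genes are printed because the results below turn on them: Apoe (chr7:19699139-19699438, the most upstream of its 3 listed starts), Apoc2 (chr7:19677892-19678191) and Apoc4 (chr7:19681411-19681710), which were high together on 1 array, and Bcam (chr7:19770483-19770782) and Bcl3 (chr7:19822706-19823005), which differed between genotypes. Capitals mark matches on either strand to 4 motifs, which were the NF-kappaB consensus, the GC box GGGCGG, the TATA box TATAAA and the nuclear receptor hexamer AGGTCA.
Apoe: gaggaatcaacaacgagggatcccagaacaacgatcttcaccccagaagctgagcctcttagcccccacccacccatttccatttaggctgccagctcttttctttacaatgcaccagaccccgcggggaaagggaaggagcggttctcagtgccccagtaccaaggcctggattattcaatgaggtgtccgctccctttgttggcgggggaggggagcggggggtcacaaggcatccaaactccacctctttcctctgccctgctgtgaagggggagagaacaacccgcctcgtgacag
Apoc2: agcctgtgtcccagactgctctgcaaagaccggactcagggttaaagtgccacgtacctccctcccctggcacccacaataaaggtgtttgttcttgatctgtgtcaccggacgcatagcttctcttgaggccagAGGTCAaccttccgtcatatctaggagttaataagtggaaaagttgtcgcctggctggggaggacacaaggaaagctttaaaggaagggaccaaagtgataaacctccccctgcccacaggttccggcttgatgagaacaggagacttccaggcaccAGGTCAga
Apoc4: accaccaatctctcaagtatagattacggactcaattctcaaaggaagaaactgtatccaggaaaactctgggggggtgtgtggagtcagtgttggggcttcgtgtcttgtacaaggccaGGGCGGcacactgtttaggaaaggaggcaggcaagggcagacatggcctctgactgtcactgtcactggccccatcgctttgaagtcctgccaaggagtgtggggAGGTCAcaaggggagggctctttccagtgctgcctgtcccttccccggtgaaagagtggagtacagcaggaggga
Bcam: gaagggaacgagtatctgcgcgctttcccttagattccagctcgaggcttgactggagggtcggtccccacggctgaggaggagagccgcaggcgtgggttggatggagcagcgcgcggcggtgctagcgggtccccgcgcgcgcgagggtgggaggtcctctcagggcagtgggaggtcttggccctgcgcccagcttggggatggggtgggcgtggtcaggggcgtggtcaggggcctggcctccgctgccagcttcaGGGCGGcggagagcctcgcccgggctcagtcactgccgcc
Bcl3: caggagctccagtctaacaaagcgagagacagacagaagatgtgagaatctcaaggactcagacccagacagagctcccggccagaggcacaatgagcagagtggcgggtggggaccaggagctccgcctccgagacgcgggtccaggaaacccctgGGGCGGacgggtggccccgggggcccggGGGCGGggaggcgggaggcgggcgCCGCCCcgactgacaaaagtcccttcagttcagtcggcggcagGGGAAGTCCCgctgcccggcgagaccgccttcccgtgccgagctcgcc
The Bcl3 window held 1 stretch that matched the NF-kappaB consensus, on both strands, 2 bases after the annotated start, and 8.46% of the 32851 windows in the table held a match to this consensus. It also held 3 GC boxes, against 35.7% of all windows with at least 1, and the Bcam window held 1. The hexamer AGGTCA occurred at 2 places in the Apoc2 window and at 1 in the Apoc4 window, and in 16.3% of all windows. None of the 4 motifs occurred in the Apoe window shown, and TATAAA, present in 13.6% of all windows, occurred in none of the 5. In these windows no 2 motifs overlapped. These matches describe the letters only, and binding was not measured.

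The arrays were close in overall level, with medians from 178.0 to 195.5 units, and 754 of 27023 probe sets passed the test between genotypes (limma with Benjamini-Hochberg adjustment at 0.05), 678 higher and 76 lower in apoE-/- aorta. Listed smooth muscle markers were bright on every array, with a summed level of 8 genes from 50639 to 66212 units, most of it from Acta2, Myh11 and Tagln, and none of the 8 was called. Markers of other cell types differed between arrays. The summed level of 13 macrophage markers was 15756 to 16957 units in wild type and 37561 to 55669 in apoE-/-, with 12 of 13 called higher. Of those 12, Trem2 and Itgam had wild-type means of 27.2 and 123 units, under the 124 units of the dimmest probe set kept, and so were tested only because they were high in apoE-/-. The summed level of 6 measured hepatocyte markers was 18623 units on the apoE-/- replicate 3 array and 508.7 to 3033 units on the other 5 arrays. The summed level of 5 skeletal muscle markers was 17244 units on the wild type replicate 3 array and 269.1 to 601.2 units elsewhere. No marker in these lists read under 1 unit on any array. In whole tissue, fewer cells of a type and less RNA per cell cannot be told apart.

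Of the 12 probe sets, 10 passed the filter on low values and 3 of those 10 were called, where 2.79% of all kept probe sets were. Apoe and Bcam were lower in apoE-/- aorta and Bcl3 was higher, and with Apoe set aside as the targeted gene 2 of 9 were called. The same 3 probe sets were the only ones of the 12 whose genotypes did not overlap, a state found in 22.8% of all kept probe sets. The remaining 7 kept probe sets, of Apoc1, Apoc4, Tomm40, Clptm1, Nectin2 (2) and Relb, did not pass the test. Those of Apoc2 and of the second Clptm1 probe set had means under 124 units, the lowest mean kept, and were read without a test over the kept probe sets.

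**Figure D1:**
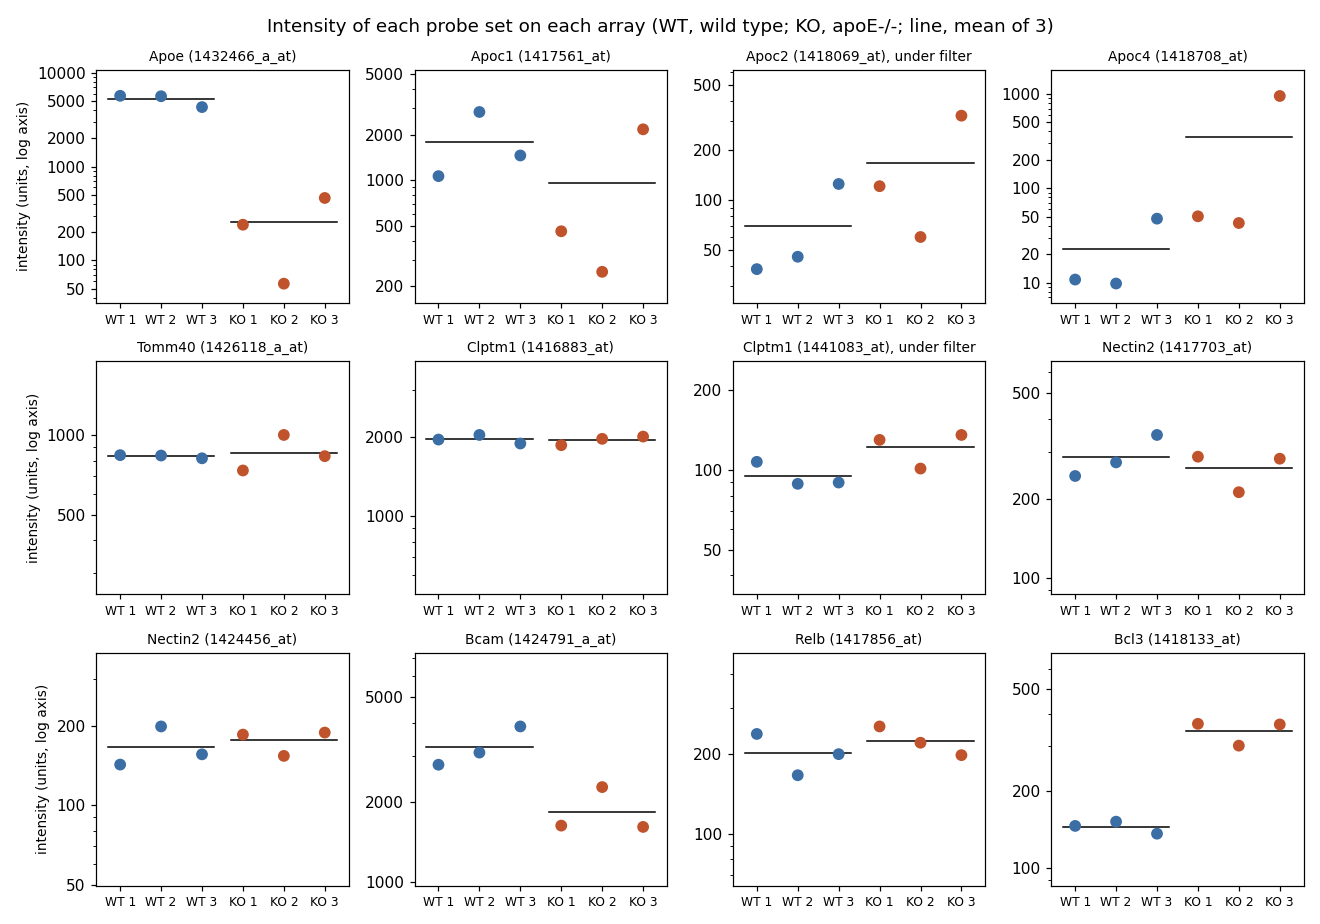
Intensity of each of the 12 probe sets on the 6 arrays (log axis, units as deposited; WT, wild type; KO, apoE-/-; horizontal line, mean of 3). The genotypes separate for Apoe, Bcam and Bcl3, whereas Apoc1, Apoc2 and Apoc4 are high on the third apoE-/- array, at 2164, 325.0 and 950.9 units.

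Apoe, the gene disrupted in the mutant strain, read 5686, 5625 and 4309 units on the wild-type arrays 1 to 3 and 239.5, 56.3 and 462.1 units on the apoE-/- arrays. The genotypes were far apart, and among the apoE-/- arrays replicate 2 was lowest and replicate 3 highest. On the scale of log2(intensity + 16), used for every log2 change here, the difference was -4.65 ± 0.55 (SE, adjusted p = 0.00342, 95% confidence interval -5.90 to -3.39). Leaving out any single array kept the call, with log2 changes from -5.25 to -3.89. All 6 arrays thus read in the direction of their labels. The table does not show whether it lies in the part of the gene that was altered. Across the 3 apoE-/- arrays the summed macrophage markers were lowest on replicate 2, as Apoe was, and nearly equal on replicates 1 and 3. Their sums were 55209, 37561 and 55669 units on replicates 1 to 3. Of the 13 markers, 10 were highest on replicate 3 and 3 on replicate 1. The summed hepatocyte markers were 508.7, 740.7 and 18623 units, highest on the array with the most residual Apoe signal. The part of macrophages and hepatocytes in the residual signal was not tested.

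Apoc1, whose protein slows the uptake and lipolysis of lipoproteins, was next to Apoe in both position and direction. It read 1064, 2815 and 1456 units in wild type and 461.0, 249.2 and 2164 units in apoE-/-. The first 2 apoE-/- arrays lay under every wild-type array, and the third lay above 2 of the 3. Over all arrays the log2 change was -1.34 ± 0.67 (SE) and was not called (adjusted p = 0.368, interval -2.87 to 0.18). Without apoE-/- replicate 3 the apoE-/- mean was 355 units, the log2 change was -2.21 ± 0.40 (SE) and the probe set was called lower (adjusted p = 0.0463), in a comparison in which 1.28% of kept probe sets were called. That was the only one of the 16 alternatives tried in which Apoc1 was called, and the adjusted p ranged from 0.0463 to 0.600 over them. Among wild-type arrays Apoc1 did not follow the hepatocyte markers: it was highest on replicate 2, where their summed level was 667.6 units, and lower on replicates 1 and 3, where that level was 3033 and 2677 units. Replicate 2 had the highest summed level of adipocyte markers, 40724 units against 25711 and 29668. On apoE-/- replicates 1 to 3 that level was 34251, 23795 and 24834 units, highest on replicate 1, whereas Apoc1 was highest on replicate 3. The part of adipocytes in the Apoc1 level was not tested.

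Apoc4 and Apoc2 were dim on most arrays and bright on 1. Apoc4, an apolipoprotein made almost only in liver, read 10.8, 9.8 and 47.7 units in wild type and 50.5, 42.9 and 950.9 units in apoE-/-. The third apoE-/- array stood alone, and the other 5 lay between 9.8 and 50.5 units, levels not shown to be above background, so no ratio is given. The log2 change of 2.14 ± 0.98 (SE) was not called (adjusted p = 0.326), was 0.83 ± 0.68 without that array (adjusted p = 0.698), and the probe set passed the filter on low values through that array. Apoc2, the cofactor that lipoprotein lipase needs, read 38.2, 45.4 and 125.3 units in wild type and 121.5, 59.8 and 325.0 units in apoE-/-. Again the third apoE-/- array was highest, and the rest overlapped between genotypes. In the fit without a filter its log2 change was 0.97 ± 0.58 (SE, adjusted p = 0.543).

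The same array stood out for other liver apolipoproteins. Of 18 further apolipoprotein genes listed, 11 were tested and limma called none (3.46% of all genes were called, 3.09% higher). However, 5 of the 11 read more than 2 times as high on apoE-/- replicate 3 as on any other array. The genes of this list other than Clu were named after their values were seen. Apoa1, the main protein of high-density lipoprotein, read 2394 units there and 29.0 to 216.8 units elsewhere, and Apoa2 read 3555 units there and 183.5 to 352.7 elsewhere. Apoc3, an inhibitor of lipoprotein clearance, read 2097 units there and 61.9 to 246.5 elsewhere, Apoh 1346 against 211.0 to 461.4, and Apoa5 635.0 against 62.1 to 221.9. All 6 measured hepatocyte markers were highest on that array, among them albumin (Alb) at 6746 units against 216.4 to 2028 elsewhere and transthyretin (Ttr) at 9292 against 46.1 to 751.2. The apolipoproteins Apod and Clu, which are made widely, did not share the pattern: Apod was lowest on that array at 1486 units (1538 to 1955 elsewhere) and Clu read 12882 units in a range of 11151 to 17028. Apom was highest there by little, at 235.7 units against 46.4 to 198.3 elsewhere. Apol6, Apoo and Apool were not highest there. They read 536.2, 1512 and 684.4 units, in ranges of 406.8 to 873.4, 1416 to 2466 and 482.7 to 751.2. Clu had the smallest p of the list, with a log2 change of 0.29 ± 0.12 (SE, adjusted p = 0.289). The list's median log2 change stood at 0.21, with 9 of 11 positive, and -0.35 without apoE-/- replicate 3, beside -0.05 and -0.04 over all genes tested. The part of hepatocyte RNA in the levels of Apoc1, Apoc2 and Apoc4 on that array was not tested.

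**Figure D2:**
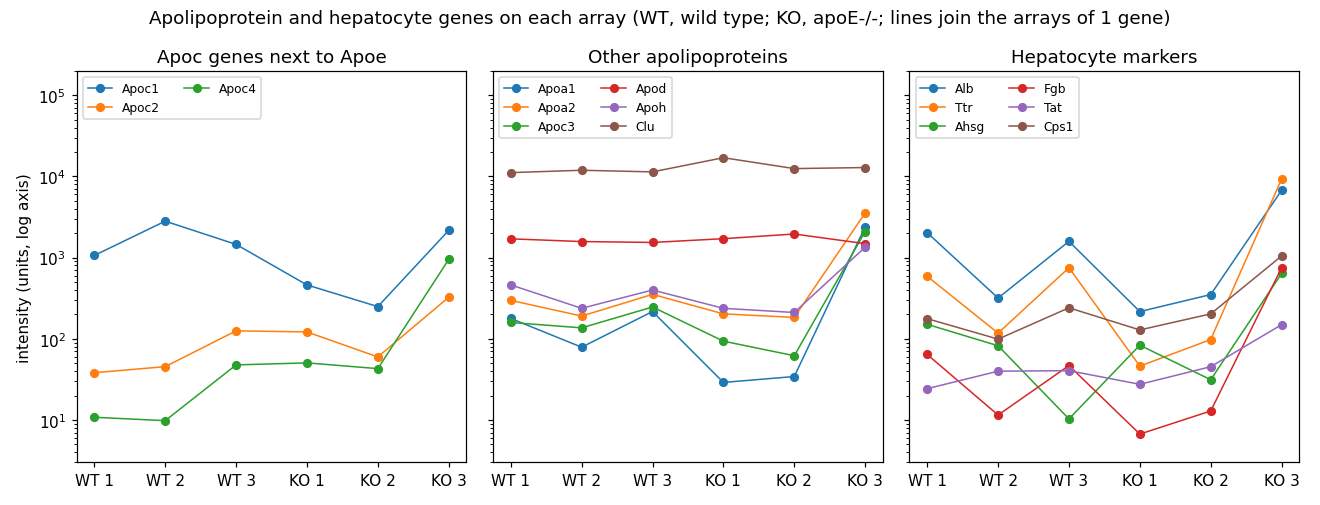
Intensity (log axis, units) of Apoc1, Apoc2 and Apoc4 (left), of 6 other apolipoproteins (middle) and of 6 hepatocyte markers (right) on the 6 arrays, 1 line per gene (WT, wild type; KO, apoE-/-). Apoc2, Apoc4, Apoa1, Apoa2, Apoc3, Apoh and all hepatocyte markers peak on the third apoE-/- array, whereas Apoc1 peaks on the second wild-type array and Apod and Clu stay within 1486 to 1955 and 11151 to 17028 units.

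Tomm40 and Clptm1 differed little between genotypes. Tomm40, the channel through which proteins enter mitochondria, read 838.4, 835.6 and 815.8 units in wild type and 733.6, 999.4 and 831.1 units in apoE-/-. Both the highest and the lowest array were apoE-/-, and the log2 change was 0.03 ± 0.13 (SE, adjusted p = 0.936, interval -0.26 to 0.32). Clptm1 read 1949, 2029 and 1884 units in wild type and 1857, 1962 and 2001 units in apoE-/- with its brighter probe set, a log2 change of -0.01 ± 0.09 (SE, adjusted p = 0.970, interval -0.21 to 0.19). Of the 10 kept probe sets this one had the narrowest interval. Its dim probe set read 107.4, 88.7 and 89.7 units in wild type and 130.0, 101.3 and 135.7 units in apoE-/-, overlapping between genotypes. Of 27 listed genes of mitochondrial protein import tested with limma, none was called, where 3.46% of all genes were. Their log2 changes lay between -0.23 and 0.15 with a median of -0.11, against -0.05 over all genes. Mtx1, an outer membrane import protein, had the smallest p, with a log2 change of -0.22 ± 0.10 (SE, adjusted p = 0.326).

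Nectin2, which joins neighbouring cells at adherens junctions, gave no call with either probe set. The brighter one read 243.3, 273.9 and 347.7 units in wild type and 287.8, 211.3 and 282.8 units in apoE-/- (log2 change -0.14 ± 0.19, SE, adjusted p = 0.771, interval -0.56 to 0.29). The dimmer one read 142.6, 198.7 and 155.9 units in wild type and 185.1, 153.8 and 188.4 units in apoE-/- (log2 change 0.08 ± 0.20, SE, adjusted p = 0.872). The genotypes overlapped in both, and the signs of the 2 differed. Of 8 nectin and nectin-like genes tested, 1 was called, where 3.46% of all genes were, and the list median was 0.07. Cadm1, an adhesion molecule of the same immunoglobulin family, averaged 326 ± 27.8 units in wild type and 622 ± 87.7 in apoE-/- (SD, n = 3), and this rise of 0.90 ± 0.14 on the log2 scale was called (SE, adjusted p = 0.0121). It was not called without apoE-/- replicate 1 (adjusted p = 0.0544) or without apoE-/- replicate 3 (adjusted p = 0.0557). Pvr, a relative of Nectin2 that also lies a few genes from Apoe, was named after its values were seen. It had a log2 change of 0.28 ± 0.13 with its brightest probe set (SE, adjusted p = 0.317). Its 4 other kept probe sets went both ways, with log2 changes of 0.49, 0.32, -0.16 and -0.17, and none was called.

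Bcam, the Lutheran glycoprotein that binds laminin of basement membranes, fell in apoE-/- aorta. It read 2773, 3082 and 3869 units in wild type and 1633, 2283 and 1614 units in apoE-/-. Every apoE-/- array lay under every wild-type array, with the gap smallest between apoE-/- replicate 2 and wild type replicate 1. Means were 3242 ± 565 and 1844 ± 381 units (SD, n = 3), and the log2 change was -0.81 ± 0.17 (SE, adjusted p = 0.0379, interval -1.19 to -0.44), where 0.281% of kept probe sets were called lower. The call was close to the threshold. It was lost without wild type replicate 1, 2 or 3 (adjusted p = 0.0593, 0.0819 and 0.126) and without apoE-/- replicate 1 or 3 (0.148 and 0.161), and remained without apoE-/- replicate 2 (0.0101), while the log2 change stayed between -0.98 and -0.68. The highest Bcam value was on wild type replicate 3, the array with the high skeletal muscle markers, and the part of muscle RNA in it was not tested; without that array the log2 change was -0.68. Of the 8 smooth muscle markers, Smtn, Lmod1 and Myocd, named after their values were seen, also read lower in apoE-/- without overlap (22.8% of all kept probe sets did not overlap). Their log2 changes were -0.33, -0.39 and -0.52 (adjusted p = 0.101, 0.154 and 0.171). The rest of that list, Acta2, Myh11, Tagln, Cnn1 and Des, overlapped between genotypes, with log2 changes of -0.05, -0.16, -0.04, -0.14 and -0.08. The part of smooth muscle RNA in the fall of Bcam was not tested.

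Laminins and laminin receptors, the partners of Bcam, held no called gene among 16 tested with limma, where 3.46% of all genes were called. Their median log2 change was -0.13 and 5 of 16 were positive. The smallest p was that of Itga7, a laminin-binding integrin of muscle, which read 1876 ± 77.8 units in wild type and 1271 ± 207 in apoE-/- (SD, n = 3), a log2 change of -0.57 ± 0.13 (SE, adjusted p = 0.0521). It was called in 4 of 16 alternatives, which were without apoE-/- replicate 2 (adjusted p = 0.0106), with array weights (0.0313), with 1 probe set per gene (0.0428) and with the 60% filter (0.0455). Its log2 change had a range of -0.69 to -0.48 over the arrays left out. Lama5, the laminin chain that Bcam binds, read 1624 ± 102 units in wild type and 1314 ± 281 in apoE-/- (log2 change -0.32, adjusted p = 0.327), with overlapping genotypes. The list did not run one way: its largest changes were upward, in the integrin chains Itgb4 (log2 change 1.34 ± 0.38, SE, adjusted p = 0.120) and Itga6 (0.98 ± 0.29, adjusted p = 0.140), which did not overlap between genotypes and were not called. The wild-type mean of Itgb4, 111 units, lies under the 124 units of the dimmest probe set kept. Itgb4 was thus tested only because it was high in apoE-/-. Lama5, Itgb4 and Itga6 were named after their values were seen.

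Bcl3, a nuclear protein of the I-kappaB family that acts with the p50 and p52 subunits of NF-kappaB, rose in apoE-/- aorta. It read 146.0, 151.7 and 136.1 units in wild type and 366.6, 301.1 and 364.6 units in apoE-/-. The values were tight within each genotype, and the lowest apoE-/- array lay well above the highest wild-type array. Means were 145 ± 7.89 and 344 ± 37.3 units (SD, n = 3), and the log2 change was 1.16 ± 0.16 (SE, adjusted p = 0.00598, interval 0.80 to 1.52), where 2.51% of kept probe sets were called higher. Bcl3 stayed called in all 15 alternatives in which it was tested, with adjusted p from 0.0042 to 0.0440 and log2 changes from 0.96 to 1.25. Its wild-type level is dim, and a stricter filter that left out the lower 60% of probe sets removed it. Beside it, the summed macrophage markers were also lowest on replicate 2 among the apoE-/- arrays and did not overlap between genotypes, and their part in the rise of Bcl3 was not tested.

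Relb, the NF-kappaB subunit of the non-canonical pathway at the other end of this stretch, read 238.4, 166.5 and 200.0 units in wild type and 254.5, 220.9 and 198.3 units in apoE-/-. The genotypes overlapped, and the log2 change was 0.15 ± 0.19 (SE, adjusted p = 0.739, interval -0.27 to 0.57). Of 18 other NF-kappaB family members and regulators tested, 2 were called, both higher, where 3.09% of all genes were called higher, and the list median was 0.06. Nfkbie, an inhibitor of the I-kappaB family, averaged 107 ± 18.6 units in wild type and 305 ± 95.7 in apoE-/- (SD, n = 3) and rose by 1.35 ± 0.26 on the log2 scale (SE, adjusted p = 0.0310). Its wild-type mean lies under the 124 units of the dimmest probe set kept, so it was tested only because it was high in apoE-/-, and with no filter it was not called (adjusted p = 0.0707). The nuclear protein Nfkbiz averaged 748 ± 196 and 1523 ± 186 units and rose by 1.04 ± 0.19 (adjusted p = 0.0259), a call lost with no filter (0.0549) and without an intensity trend (0.0672). Neither was called without apoE-/- replicate 1 (adjusted p = 0.145 and 0.122), without apoE-/- replicate 3 (0.152 and 0.0936) or without wild type replicate 1 (0.0714 and 0.0521), and Nfkbie was also not called without wild type replicate 2 (0.0869) or 3 (0.0820). The subunit genes Rela and Nfkb2, named after their values were seen, had log2 changes of 0.01 and -0.35 and were not called.

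**Figure D3:**
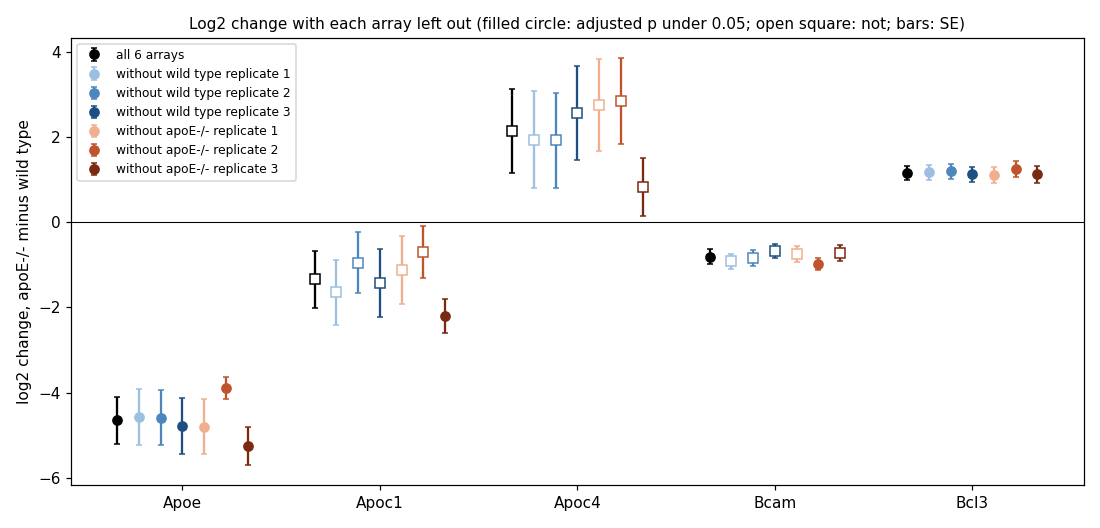
Log2 change (apoE-/- minus wild type) of Apoe, Apoc1, Apoc4, Bcam and Bcl3 with all 6 arrays (black) and with each array left out (colours); bars are the standard error of the fit, filled circles are adjusted p under 0.05 and open squares are not. Apoe and Bcl3 are called throughout, Bcam is called with all arrays and without apoE-/- replicate 2, and Apoc1 is called only without apoE-/- replicate 3, where its log2 change is -2.21.

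LXR genes and lipoprotein genes elsewhere in the genome were read beside the apolipoprotein cluster. Of 15 LXR receptors and targets tested, 5 were called higher and none was called lower (3.09% of all genes were called higher). The log2 change was positive for 9 of the 15, with a median of 0.16. The macrophage markers moved with the 5 called genes, at summed levels of 15756 to 16957 units in wild type and 37561 to 55669 in apoE-/-. The part of macrophages in these rises was not tested. Cd5l, a macrophage protein induced by LXR, averaged 201 ± 25.6 units in wild type and 8563 ± 1857 in apoE-/- (SD, n = 3) and rose by 5.29 ± 0.17 on the log2 scale (SE, adjusted p = 2.89e-06). The cholesterol exporters Abcg1 and Abca1 rose by 1.85 ± 0.19 and 1.30 ± 0.13 (both adjusted p = 0.00162), and these 3 genes were called with every array left out in turn. Pltp, which transfers phospholipid between lipoproteins, rose by 0.73 ± 0.15 (adjusted p = 0.0337), and Mylip, which marks the LDL receptor for degradation, by 0.66 ± 0.10 (adjusted p = 0.0114). Pltp was not called without wild type replicate 1 or 3 or without apoE-/- replicate 1 or 3 (adjusted p = 0.124, 0.132, 0.123 and 0.145), nor with no filter (0.0789) or no intensity trend (0.0995), and Mylip not without wild type replicate 3 or apoE-/- replicate 1 or 3 (0.0585, 0.0546 and 0.0543). The lipid synthesis targets Fasn, Scd1 and Srebf1, named after their values were seen, had log2 changes of -0.35, -0.09 and -0.07 with overlapping genotypes and were not called. Scd2 and Lpcat3, named in the same way, went up by 0.23 and 0.29 and were not called either (adjusted p = 0.424 and 0.209). Genotypes overlapped for Scd2 but not for Lpcat3, where 24.7% of all genes did not overlap. The receptor Nr1h3 (LXR alpha), named in the same way, read 425 ± 38.7 and 369 ± 63.5 units and was not called (adjusted p = 0.558).

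Of 17 lipoprotein receptors and lipases tested, the 2 called were Pltp and Mylip, which stand in both lists, and the median was -0.13. Receptors of apolipoprotein E, named after their values were seen, were Lrp1 at 5790 ± 316 and 7009 ± 710 units (adjusted p = 0.220), Vldlr at 3760 ± 201 and 3444 ± 414 (adjusted p = 0.598), and Lrp6, a relative, at 2808 ± 187 and 2540 ± 34.7 (adjusted p = 0.479; SD, n = 3, wild type first). None was called. Over the 7 lists together, 8 of 109 genes were called, all higher, with a median of -0.05, where 3.46% of all genes tested were called and 3.09% were called higher. The lists were chosen with results of these arrays known, so this share is a description. Without apoE-/- replicate 1 or apoE-/- replicate 3, 3 of the 109 were called.

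**Figure D4:**
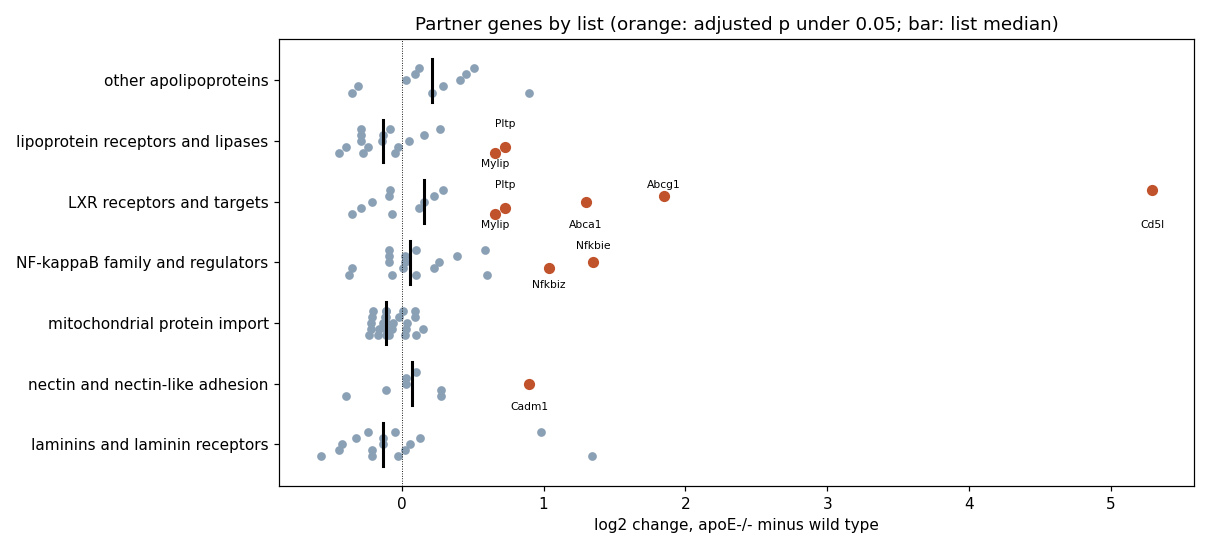
Log2 change (apoE-/- minus wild type) of each tested gene in 7 lists of functional partners, 1 point per gene; orange points are adjusted p under 0.05 and are named, and the vertical bar is the list median. The 5 called LXR genes reach from 0.66 (Mylip) to 5.29 (Cd5l), while the 27 genes of mitochondrial import lie within -0.23 to 0.15.

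The wider gene order was read as the 20 nearest genes with a kept probe set on each side of Apoe, which included 8 of the genes above. Of these 40 genes, 2 were called, Bcam and Bcl3, against 3.46% of all genes. Limma called none of the other 32, each read from its kept probe set of highest mean. Genotypes did not overlap for 15 of the 40 (37.5%), 9 lower and 6 higher in apoE-/-, where 24.7% of all genes had that state. The median log2 change of the 40 was -0.14. Closest to the threshold, and named after their values were seen, were Ercc2, a DNA repair helicase, at 556 ± 133 and 308 ± 30.5 units (SD, n = 3, log2 change -0.80 ± 0.19, SE, adjusted p = 0.0704) and Klc3, a kinesin light chain, at 426 ± 17.8 and 267 ± 48.7 units (-0.66 ± 0.16, adjusted p = 0.0724). With array weights both were called (adjusted p = 0.0349 and 0.0485), Ercc2 was also called without wild type replicate 2 (0.0169), and Klc3 without apoE-/- replicate 2 (0.0392). Ckm, the creatine kinase of muscle, was also named after its values were seen. It had the largest fall among the 32 with its probe set of highest mean, a log2 change of -2.59 ± 0.96 (SE, adjusted p = 0.228). It read 2477 units on wild type replicate 3, the array with the high skeletal muscle markers, 112.0 and 167.2 on the other wild-type arrays and 23.0 to 69.1 in apoE-/-. That array alone made its mean the higher. A second Ckm probe set, left out of the counts above, was the brighter on every array except wild type replicate 3. This second probe set read 432.2, 467.7 and 454.6 units in wild type and 267.3, 286.0 and 256.2 in apoE-/-. It was called lower (log2 change -0.71 ± 0.12, SE, adjusted p = 0.0204).

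**Figure D5:**
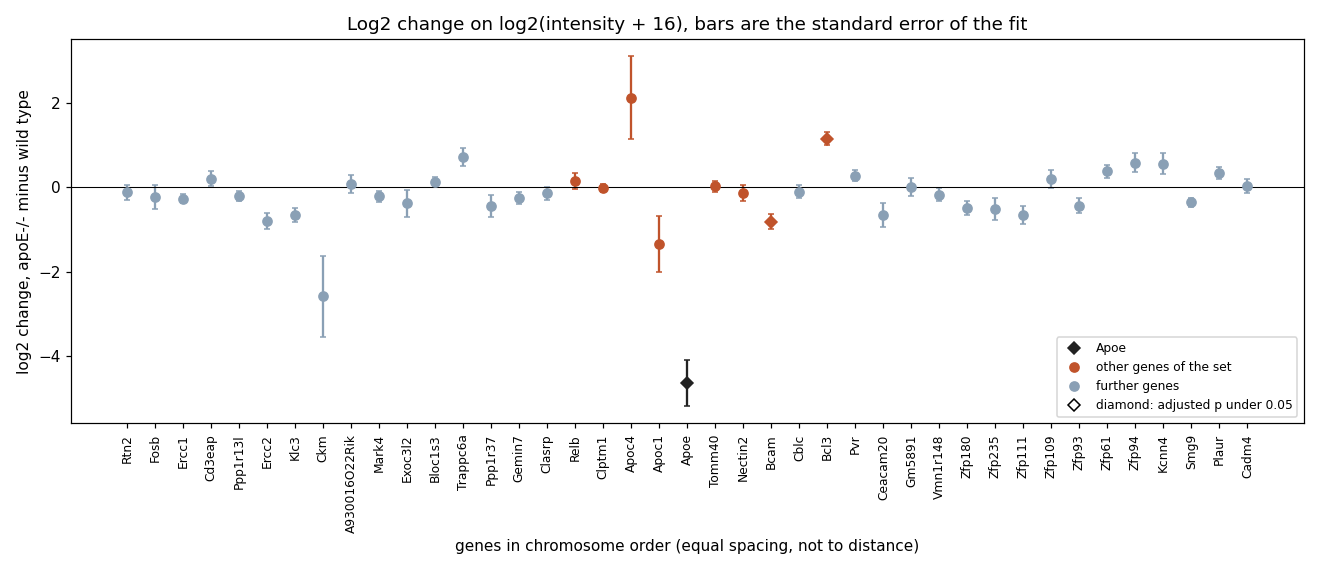
Log2 change (apoE-/- minus wild type) with its standard error for Apoe and the 20 nearest genes with a kept probe set on each side, in chromosome order with equal spacing; diamonds are adjusted p under 0.05. Each gene is shown by its kept probe set of highest mean, and by these Apoe (-4.65), Bcam (-0.81) and Bcl3 (1.16) are called. Apoc1, Apoc4 and Ckm have the widest bars, and a second Ckm probe set, not shown, was called lower.

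The probe sets whose 6 values were most like those of the called genes were found by Pearson correlation on the log2 scale over the 6 arrays, among kept probe sets with 1 gene symbol. For Apoe they were those of Tor1aip2 (r = 0.994), Plac1 (0.994), Zfp62 (0.991), Nae1 (0.989) and Paf1 (0.986). Being chosen for likeness to Apoe, they had to be lower in apoE-/- and are a description (22.8% of all kept probe sets did not overlap). Their log2 changes were far smaller than that of Apoe, from -0.30 to -0.16, with adjusted p from 0.213 to 0.534. For Bcam they were Mettl5 (r = 0.996), Pde4d (0.995) and Brms1l (0.995), with log2 changes of -0.31, -0.34 and -0.09, none called. For Bcl3 they were the galectin Lgals3 (r = 0.999) and the complement chain C1qa (0.998), both genes of macrophages and both called higher (log2 changes 3.46 ± 0.19 and 1.86 ± 0.15, SE), and Spns2 (0.998), with a log2 change of 0.21 and not called. Chosen in the same way, the matches of Bcam had to be lower and those of Bcl3 higher in apoE-/-, so their directions are a description too. Each r is a description over 6 arrays of 2 genotypes, taken as the highest of many.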

How the data were processed

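Total RNA of 6 aorta samples, 3 per genotype, was measured on 1 array each. The authors deposited 1 intensity per probe set on a linear scale. Trimmed by 2% at each end, the 6 arrays shared a mean of 500.002 units, so the deposited intensities share 1 scaling, and the software is not given in the sources used here. Names came from the platform annotation (34958 probe sets with 1 symbol, 932 with several, which named no gene, and 9160 without an entry), updated by gene identifier where matched (34754) to the GRCm38.p6 gene table, which also gave the gene order.

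After 64 control probe sets and the lower 40% by mean over all arrays were left out, 27023 probe sets were tested on log2(intensity + 16) with limma 3.58.1 in R 4.3.3 (lmFit, eBayes with intensity trend) and Benjamini-Hochberg adjustment over all of them, with calls at 0.05. Intervals are 95%. The offset compresses changes of dim probe sets. In counts by gene, each gene was read from its brightest kept probe set (13052 genes). An exact permutation test of 3 against 3 has 0.1 as its smallest two-sided p and was not used. The fit was checked on simulated arrays with independent noise. These hold no array that differs in tissue content, so the check cannot show how such an array affects the calls. The number of arrays limits the precision.

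All probe sets of the 10 genes were described; in each list up to 4 called genes by size, or the gene with the smallest p, were named, and any other is said to be chosen after its value was seen. The genes, lists and tests were chosen with earlier results of these data known. The list members that moved most are not independent evidence. Alternatives were log offsets of 1 and 64, quantile normalization, median centring, no filter, a 60% filter, no intensity trend, array weights, 1 probe set per gene, a replicate block and each array left out. The labels name no batch or date.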

Additional observations from a re-analysis of the deposited data

How the results depend on the processing

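Of 16 alternatives, 6 left out 1 array each. The total of 754 called probe sets was 457 without an intensity trend and 477 with 1 probe set per gene, and ranged from 292 (without apoE-/- replicate 1) to 1091 (without apoE-/- replicate 2) with an array left out. The 3 called probe sets among the 12 became 2 with no filter, the 60% filter, no intensity trend or the replicate block, and 2 to 3 with an array left out. Bcam lost its call with no filter (adjusted p = 0.0745) and without an intensity trend (0.0987); Bcl3 was not tested under the 60% filter. Of the 40 neighbouring genes, 1 instead of 2 was called with no filter, the 60% filter, no intensity trend or the replicate block, 4 with array weights, and 1 to 3 with an array left out. The 8 called partner genes became 5 with no filter and 3 to 12 with an array left out. Signs turned only for uncalled probe sets: the brighter Clptm1 probe set had a log2 change of 0.015 under median centring and -0.04 to 0.02 with an array left out, Tomm40 -0.086 to 0.13, and Nectin2 -0.24 to 0.001 (brighter probe set) and -0.008 to 0.21 (dimmer). Replicate numbers are shared between genotypes in the labels, but same-numbered arrays did not deviate together (r = -0.112, -0.134 and -0.036), and no wild-type array correlated best with its own number. With the replicate number as a block, 534 probe sets were called, Bcl3 and Apoe stayed called, and Bcam and Pltp were not (adjusted p = 0.0674 and 0.0975). Probe sets near or under 100 units, such as those of Apoc2 and Apoc4, are not shown to be above background.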
